A study of Mus musculus with 6 samples.

Results

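The 10 genes described here carry glucose into the cell, break it down to pyruvate and lactate, and move lactate across the plasma membrane. They were chosen by symbol from a table of 20170 genes measured in the colon: Slc2a1, Hk1, Hk2, Pfkp, Pfkfb3, Aldoa, Pkm, Ldha, Slc16a1 and Slc16a3. All 10 had a row in the table and all 10 passed the filter on low counts, which kept 15890 genes. RNA was sequenced from 6 colon samples of wild-type C57BL/6J mice, 3 per group. The stressed group received azoxymethane (AOM), dextran sulfate sodium (DSS) and chronic restraint stress, and the control group received AOM and DSS without restraint. Both groups thus carried the tumour-inducing treatment: AOM, a mutagen, was injected once at 10 mg/kg, and DSS, an irritant of the colon lining, was given at 2% in the drinking water in 3 rounds. Restrained mice were kept in a 50 mL tube for 3 to 4 hours a day. The labels give no age, sex or position along the colon, and no group without AOM and DSS was analysed here. Nothing in the labels says that each sample is a separate mouse, so a p-value speaks only of the variation among these 6 samples.

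Glycolysis splits a glucose molecule into pyruvate in the cytosol, and lactate dehydrogenase can then reduce pyruvate to lactate. Tumours and rapidly dividing cells commonly run this route even where oxygen is present. Lactate crosses the plasma membrane with a proton through the monocarboxylate transporters. MCT1, encoded by Slc16a1, works in either direction and in the colon also takes up butyrate made by bacteria, whereas MCT4, encoded by Slc16a3, is the exporter typical of highly glycolytic cells.

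Total counts ran from 27160547 to 33017500 per sample. The labels name both colon tissue and a colorectal cancer cell type; markers of colon epithelium summed to 7299.7 to 9660.4 counts per 1000000 counts (CPM, scaled with TMM) in stressed samples and 8345 to 11099 CPM in controls, and smooth muscle markers summed to 2188 to 3676 CPM in stressed samples and 4908 to 6671 CPM in controls, so the samples held RNA of more than epithelium. Since these are whole-tissue samples, fewer cells of a type and less RNA per cell cannot be told apart. Control replicate 3 stood apart in squamous epithelium markers, with Krt5 at 889.9 CPM against at most 0.67 CPM in any other sample. Control replicate 1 had 4032 CPM of mature colonocyte markers in sum, against 703 to 1599 CPM in the other samples.

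Between stressed and control colons the genes for glucose uptake and the glycolytic enzymes lay close together, and the clearest difference was at the lactate transporter Slc16a3. Slc16a3 averaged 85.2 ± 26.0 CPM in stressed samples and 39.99 ± 15.1 CPM in controls (SD, n = 3 each), a fold of 2.13. Slc16a1 pointed the other way with overlap, at 188 ± 72.1 CPM in stressed samples and 288 ± 94.96 CPM in controls. The other 8 genes had log2 fold changes (stress over control) between -0.22 and 0.21.

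By the edgeR quasi-likelihood test, 0 of the 10 genes passed an adjusted p of 0.05, and 0 of all 15890 genes did (0%). At an unadjusted p under 0.05 there was 1 gene of the 10, Slc16a3, against 16.6% of all genes (7.82% higher and 8.82% lower). DESeq2 called 1 of the 10, again Slc16a3, against 5.16% of all genes (2.28% higher and 2.87% lower). Slc16a3 was also the 1 gene of the 10 whose stressed and control samples did not overlap, against 23.8% of all genes (12.5% with the stressed samples above and 11.2% below). The median log2 fold change of the 10 genes was -0.11, with 4 higher and 6 lower, against a median of -0.01 and 48.4% higher over all genes tested. As a list the 10 genes therefore did not exceed the background by edgeR or by overlap. A single gene of 10 is too few to set the list apart from the DESeq2 share.

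**Figure D1:**
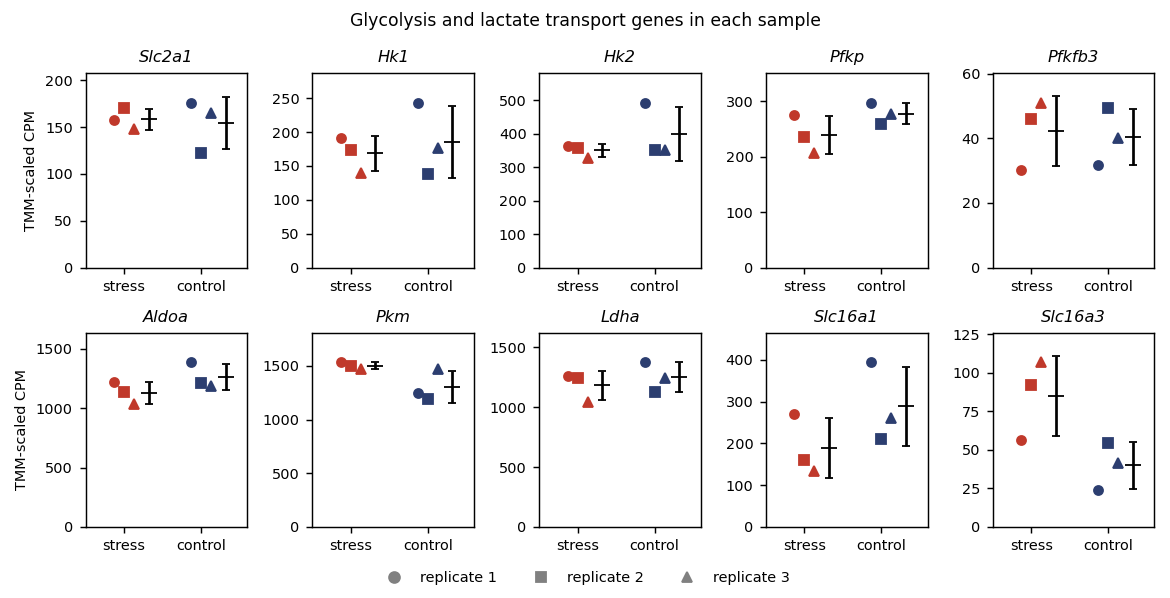
TMM-scaled CPM (linear axes from 0) of each of the 10 genes in the 3 stressed samples and the 3 controls, with the mean ± SD of each group beside its points. Only for Slc16a3 do all stressed samples (56.5 to 107 CPM) lie above all controls (24.3 to 54.5 CPM).

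Slc2a1 encodes GLUT1, the widely used glucose carrier of the plasma membrane. It was at 157, 170.3 and 148 CPM in stressed replicates 1, 2 and 3, against 176, 122.7 and 165 CPM in control replicates 1, 2 and 3. Both the highest and the lowest sample were controls, and the log2 fold change was 0.04 ± 0.15 (SE; edgeR adjusted p = 0.918). Its sign turned without control replicate 2 (-0.10) and without stressed replicate 2 (-0.01).

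Hexokinases trap glucose by phosphorylation. Hk2, the inducible form common in tumours, had 364, 357 and 329 CPM in stressed samples, against 492, 352 and 351 CPM in controls. Control replicate 1 stood apart and the other 5 samples lay within a narrow band. The log2 fold change of Hk2 was -0.19 ± 0.16 (edgeR adjusted p = 0.549), and without control replicate 1 it was -0.0076. Hk1, the form expressed in most tissues, had 192, 174 and 139.9 CPM in stressed samples, against 243, 138 and 176 CPM in controls. Here too control replicate 1 was highest, the log2 fold change was -0.14 ± 0.22 (edgeR adjusted p = 0.758), and without that sample it was 0.10. Hk2 made up 60.8%, 62.7% and 65.8% of the summed FPKM (fragments per kilobase, scaled to depth, which gives a level per gene length) of Hk1 and Hk2 in stressed samples, against 62.3%, 67.5% and 62.0% in controls. Hk3, the hexokinase of leukocytes, was at 3.00 ± 1.496 CPM in stressed samples and 2.47 ± 1.07 CPM in controls. The balance between Hk1 and Hk2 thus overlapped between the groups (difference -0.853 percentage points, exact permutation p = 0.7, two-sided).

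Pfkp encodes the platelet type of phosphofructokinase, which catalyses the committed step of glycolysis. It had 274, 236 and 206 CPM in stressed samples, against 297, 258 and 277 CPM in controls. Stressed replicates 2 and 3 lay below every control and stressed replicate 1 lay among them, and the log2 fold change was -0.22 ± 0.13 (edgeR adjusted p = 0.423). The muscle type Pfkm was at 14.4, 11.0 and 12.8 CPM in stressed samples, against 16.5, 15.1 and 16.4 CPM in controls. Its stressed samples lay below all controls, as did those of 11.2% of all genes (log2 fold change -0.33 ± 0.17, edgeR adjusted p = 0.346). The liver type Pfkl overlapped with a log2 fold change of 0.08. Of the summed FPKM of Pfkl, Pfkm and Pfkp, Pfkp made up 57.8%, 51.3% and 51.5% in stressed samples, against 54.4%, 61.2% and 59.5% in controls. That share was on average lower in stressed samples, by a difference of -4.86 percentage points, with overlap (exact permutation p = 0.2).

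Pfkfb3 makes fructose 2,6-bisphosphate, the allosteric activator of phosphofructokinase. It had 30.1, 45.9 and 51.0 CPM in stressed samples, against 31.9, 49.3 and 40.1 CPM in controls. Replicate 1 was the lowest sample of either group, and the log2 fold change of 0.07 ± 0.24 (edgeR adjusted p = 0.905) turned to -0.09 without stressed replicate 3 and -0.08 without control replicate 1. Among the related bifunctional enzymes Pfkfb4 was at 26.9 ± 4.32 CPM in stressed samples and 37.5 ± 8.05 CPM in controls (log2 fold change -0.48 ± 0.19, unadjusted p = 0.0437, edgeR adjusted p = 0.296).

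Aldoa, Pkm and Ldha encode the aldolase that splits the sugar, the pyruvate kinase of non-liver tissues and the dehydrogenase subunit that favours lactate formation. Aldoa had 1219, 1138 and 1032 CPM in stressed samples, against 1387, 1211 and 1188 CPM in controls. Its groups overlapped by 1 stressed sample, with a log2 fold change of -0.16 ± 0.12 (edgeR adjusted p = 0.514). Ldha had 1261, 1244 and 1042 CPM in stressed samples, against 1377, 1128 and 1247 CPM in controls. The highest sample of Ldha was a control and the lowest a stressed one, the groups overlapped, and it had a log2 fold change of -0.08 ± 0.13 (edgeR adjusted p = 0.774). Ldhb, the subunit that favours the reverse reaction, was low beside it, at 14.9 ± 8.51 CPM in stressed samples and 12.4 ± 3.20 CPM in controls. Ldha made up 98.9%, 98.8% and 96.6% of the summed FPKM of Ldha and Ldhb in stressed samples, against 99.0%, 98.4% and 98.2% in controls (exact permutation p = 0.8).

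Pkm was the 1 enzyme among the 10 with a positive log2 fold change above 0.1. It had 1534, 1499.8 and 1472 CPM in stressed samples, against 1243, 1192 and 1473 CPM in controls. The stressed samples lay within a narrow band that control replicate 3 reached, and the log2 fold change was 0.21 ± 0.12 (edgeR adjusted p = 0.412). With control replicate 3 left out it was 0.30, and DESeq2 called it (adjusted p = 0.0285). On the deposited FPKM scale the same gene was at 588, 578 and 596 in stressed samples, against 448, 468 and 564 in controls, so that there the groups did not overlap. The share of all genes without overlap was not counted on that scale. Tpi1, another enzyme of the pathway, likewise overlapped in CPM and not in FPKM. The row adds up the M1 and M2 splice forms of pyruvate kinase, which these counts do not separate.

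Slc16a3 was at 56.5, 92.3 and 107 CPM in stressed replicates 1, 2 and 3, against 24.3, 54.5 and 41.2 CPM in control replicates 1, 2 and 3. The gap between the groups was small, as stressed replicate 1 lay just above control replicate 2, while stressed replicates 2 and 3 stood well above every control. The log2 fold change was 1.09 ± 0.34 (unadjusted p = 0.0162, edgeR adjusted p = 0.250), and DESeq2 gave an adjusted p of 0.0374. Leaving out each sample in turn gave edgeR log2 fold changes of 0.83 to 1.38. The DESeq2 call was lost without stressed replicate 2 (adjusted p = 0.255), stressed replicate 3 (0.248), control replicate 1 (0.0979) or control replicate 3 (0.106), and it was kept without stressed replicate 1 or control replicate 2.

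Slc16a1 was at 269.8, 160.1 and 134 CPM in stressed samples, against 394, 210.2 and 261 CPM in controls. Stressed replicates 2 and 3 lay below every control, and stressed replicate 1 was the second highest of the 6 samples. The log2 fold change was -0.62 ± 0.33 (edgeR adjusted p = 0.366). It was -0.33 once control replicate 1 was left out, and -0.97 once stressed replicate 1 was, where DESeq2 called it (adjusted p = 0.0261). The samples lined up in nearly opposite order for both transporters: control replicate 1 was highest for Slc16a1 and lowest for Slc16a3, and stressed replicate 3 was lowest for Slc16a1 and highest for Slc16a3.

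Per gene length, Slc16a3 made up 26.5%, 49.8% and 57.9% of the summed FPKM of both transporters in stressed samples, against 9.56%, 30.8% and 21.4% in controls. Its mean share was 44.7 ± 16.3% in stressed samples and 20.6 ± 10.6% in controls (SD, n = 3 each), a difference of 24.1 percentage points. Stressed replicates 2 and 3 lay above all controls and stressed replicate 1 did not, and the exact permutation p was 0.2 (two-sided; 0.4 after Benjamini-Hochberg adjustment over the 4 shares compared, where 3 samples against 3 cannot go below 0.1). In stressed replicate 3 Slc16a3 was the more abundant of the pair per length, at 43.6 FPKM beside 31.8 FPKM of Slc16a1, and in stressed replicate 2 they were nearly level, at 35.8 and 36.2 FPKM.

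**Figure D2:**
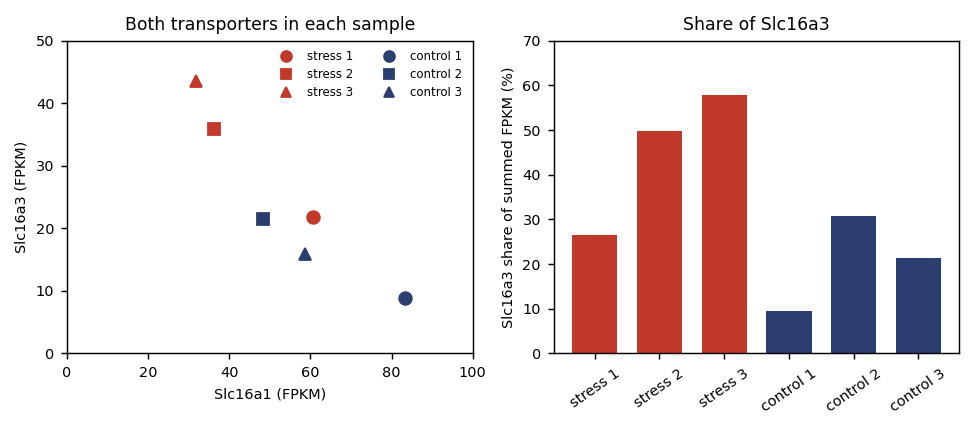
Left, the FPKM of Slc16a3 against that of Slc16a1 in each of the 6 samples; right, Slc16a3 as a percentage of the summed FPKM of both genes, with 1 bar per sample and the stressed samples first. The share runs from 26.5% to 57.9% in stressed samples and from 9.56% to 30.8% in controls.

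The promoters of both transporters and of Ldha are shown because the transporters pointed in opposite directions while Ldha hardly differed, and all 3 are known as targets of the hypoxia-inducible factor or of Myc. Each line gives the 250 bases before the RefSeq transcription start, 5′ to 3′ on the gene's strand; capitals mark ACGTG or GCGTG on either strand, the core of the hypoxia response element, and CACGTG, the E-box that Myc can bind, holds that core on both strands.
Slc16a3: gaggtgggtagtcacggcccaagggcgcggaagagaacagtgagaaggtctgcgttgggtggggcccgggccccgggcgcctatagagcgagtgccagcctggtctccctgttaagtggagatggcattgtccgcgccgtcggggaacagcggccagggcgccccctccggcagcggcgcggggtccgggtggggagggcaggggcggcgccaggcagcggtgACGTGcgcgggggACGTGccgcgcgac
Slc16a1: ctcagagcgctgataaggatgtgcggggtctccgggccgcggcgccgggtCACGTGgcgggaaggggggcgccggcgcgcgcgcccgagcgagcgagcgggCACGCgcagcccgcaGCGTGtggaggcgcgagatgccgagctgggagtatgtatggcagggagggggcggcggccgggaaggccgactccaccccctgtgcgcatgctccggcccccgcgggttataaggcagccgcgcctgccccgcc
Ldha: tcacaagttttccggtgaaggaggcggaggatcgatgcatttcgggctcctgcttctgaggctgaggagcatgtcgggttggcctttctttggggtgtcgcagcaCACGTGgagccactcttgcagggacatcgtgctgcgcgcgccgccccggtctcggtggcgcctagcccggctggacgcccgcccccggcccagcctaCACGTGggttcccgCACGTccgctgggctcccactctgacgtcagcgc

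In RefSeq on GRCm38.p6 these windows are chr11:120948817-120949066 for Slc16a3, chr3:104638414-104638663 for Slc16a1 and chr7:46845554-46845803 for Ldha, all on the plus strand. The Slc16a3 window held 2 cores, whose first bases lie at positions -27 and -14 from the start, and no E-box. The Slc16a1 window held 3, of which 1 is an E-box, and the Ldha window shown held 3, of which 2 are E-boxes. RefSeq gives another Ldha window, chr7:46846832-46847081, which is not shown and held 1 core and no E-box. Of the 16 windows that RefSeq gives for the 10 genes, some of them overlapping, 13 (81.2%) held at least 1 core, and each of the 10 genes had a core in at least 1 window. Of the 32851 windows of the same length in the table, 38.6% held at least 1 core and 6.02% an E-box. A match is a description of these letters and not a bound site.

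Hif1a, which encodes the oxygen-regulated subunit of the hypoxia-inducible factor, was at 261 ± 37.9 CPM in stressed samples and 262 ± 37.5 CPM in controls (log2 fold change -0.0020 ± 0.16). Its protein is controlled mainly by breakdown, which RNA counts do not measure. Of 18 tested hypoxia-responsive and regulatory genes outside the 10, edgeR called 0. At an unadjusted p under 0.05 there were 3, 2 higher and 1 lower, against 16.6% of all genes. The median log2 fold change of these 18 was -0.05. The higher ones were Ddit4, an inhibitor of mTOR signalling that glucocorticoids also induce, at 214 ± 53.0 CPM in stressed samples and 109 ± 33.5 CPM in controls, and Ndrg1, at 138 ± 21.9 and 87.8 ± 25.1 CPM in stressed samples and controls. The lower one was Car12, a carbonic anhydrase, at 20.6 ± 6.35 CPM in stressed samples and 45.9 ± 16.6 CPM in controls. DESeq2 called Ddit4 and Car12 of these, against 5.16% of all genes. Vegfa, Egln3 and Car9, classical targets of the factor, had log2 fold changes of -0.11 ± 0.17, 0.14 ± 0.16 and -0.07 ± 0.22. Bnip3, of the same list, departed further, at 0.56 ± 0.24 with overlap (edgeR adjusted p = 0.307). Of the 18 genes, 7 had positive and 11 negative log2 fold changes.

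Ordered by FPKM, the 10 genes showed 1 gap between neighbours, which lay between Pkm and Hk2. Aldoa, Ldha and Pkm averaged 628 ± 35.5, 621 ± 46.5 and 587 ± 9.14 FPKM in stressed samples and 679 ± 31.6, 636 ± 36.1 and 493 ± 62.3 FPKM in controls, and neighbours in this order overlapped across the 6 samples. Hk2 came next at 64.4 ± 1.53 FPKM in stressed samples and 70.7 ± 11.1 FPKM in controls, and no sample of Hk2 (at most 83.5 FPKM) came near the lowest of Pkm (448 FPKM). By the mean over all 6 samples, Pfkp, Slc2a1, Slc16a1, Hk1 and Slc16a3 followed in that order, each overlapping the next; within the stressed samples Slc2a1 lay above Pfkp, and within the controls Slc16a1 lay above Slc2a1. Pfkfb3 was lowest, at 8.17 ± 2.28 FPKM in stressed samples and 7.57 ± 1.94 FPKM in controls, and its highest sample (10.2 FPKM) overlapped with the lowest of Slc16a3 (8.80 FPKM). The highest FPKM of the 6 samples was 1.175 to 1.36 times the lowest for Ldha, Aldoa, Pfkp, Pkm, Hk2 and Slc2a1, 1.61 times for Hk1, 1.80 times for Pfkfb3, 2.62 times for Slc16a1 and 4.96 times for Slc16a3.

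**Figure D3:**
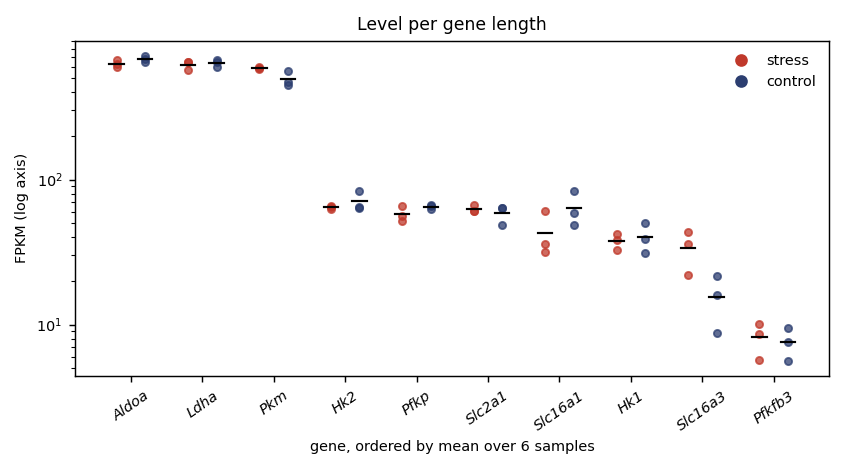
Deposited FPKM (log axis) of the 10 genes in stressed samples and controls, with 1 point per sample and a line at each group mean, ordered by the mean over all 6 samples. Aldoa, Ldha and Pkm lie between 448 and 712 FPKM, and the other 7 genes at 83.5 FPKM or less.

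Single samples moved several of the genes together. Control replicate 1 was the highest sample for 7 of the 10 (Slc2a1, Hk1, Hk2, Pfkp, Aldoa, Ldha and Slc16a1) and the lowest for Slc16a3, and stressed replicate 3 was the lowest for 5 (Hk2, Pfkp, Aldoa, Ldha and Slc16a1). The summed markers of colon epithelium had the same extremes, at 11099 CPM in control replicate 1 and 7299.7 CPM in stressed replicate 3. So did those of mature colonocytes and of smooth muscle, and whether cell content underlies the shared pattern was not tested. The genes whose log2 CPM most resembled the mean standardised profile of the 10 over the 6 samples were Atrnl1, Ap1g1 and Dnajc13, with Pearson r of 0.997, 0.992 and 0.990 among 9977 genes compared. With 6 samples and so many genes, values of this size are a description of likeness only.

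Of 18 other tested enzymes of glycolysis, edgeR called 0 and DESeq2 called 2, against 5.16% of all genes in DESeq2. Both were lower in stressed samples: Eno2 and Eno3. These are tissue-restricted forms. Eno2, the enolase of neurons, was at 5.88, 5.90 and 6.05 CPM in stressed samples, against 14.3, 13.3 and 10.2 CPM in controls, and Eno3, the enolase known from muscle, at 134, 87.3 and 66.1 CPM in stressed samples, against 299, 143 and 164 CPM in controls. The stressed samples of each lay below all controls, with log2 fold changes of -1.08 ± 0.21 and -1.07 ± 0.36 (edgeR adjusted p = 0.191 and 0.259).

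Aldoc, the aldolase best known from brain, went with Slc16a3 in direction, at 31.3, 37.3 and 57.0 CPM in stressed samples, against 24.6, 28.6 and 30.5 CPM in controls (log2 fold change 0.58 ± 0.23, edgeR adjusted p = 0.289). The widely used forms of the pathway lay close to 0, with log2 fold changes of -0.05 ± 0.11 for Gpi1, 0.11 ± 0.11 for Tpi1, 0.12 ± 0.14 for Pgk1 and 0.09 ± 0.12 for Pgam1. In this list of 18 the median log2 fold change was 0.10. In it 5 genes did not overlap between the groups, 2 higher and 3 lower, against 23.8% of all genes (12.5% higher and 11.2% lower). Gapdh was at 19.0, 60.9 and 20.9 CPM in stressed samples, against 18.5, 37.5 and 55.3 CPM in controls, far below its neighbour Tpi1 at 653 to 689 and 578 to 660 CPM. Gapdh has many near-identical pseudogenes whose reads counting can split, so its row is uncertain, and Eno1 was not analysed here.

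**Figure D4:**
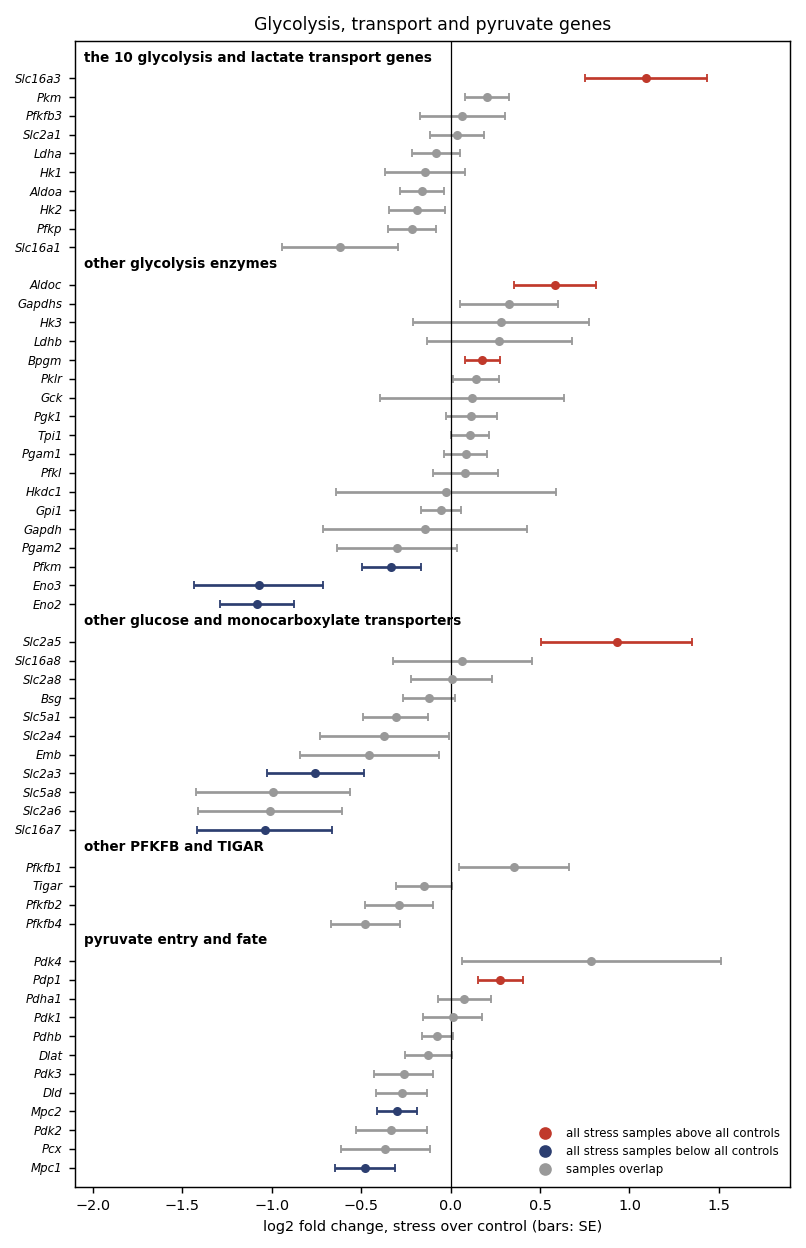
Log2 fold changes (stress over control) with their standard errors for the 10 genes and 4 lists of related genes. Red and blue points mark genes whose stressed samples all lie above or below all controls, and the widest departures among the glycolysis genes drawn are Slc16a3 (1.09) on the higher side and Eno2 (-1.08) and Eno3 (-1.07) on the lower side.

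Of 11 other tested carriers of glucose and monocarboxylates, edgeR called 0 and DESeq2 called 0. At an unadjusted p under 0.05 in edgeR there were 3, against 16.6% of all genes (8.82% lower). All 3 were lower: Slc2a3, Slc16a7 and Slc2a6. Slc2a3, the high-affinity glucose carrier of neurons and leukocytes, was at 4.67 ± 0.508 CPM in stressed samples and 7.89 ± 2.18 CPM in controls. Slc5a8, which takes up butyrate and lactate with sodium in the colon, was at 261, 169 and 92.4 CPM in stressed samples, against 512, 277 and 249 CPM in controls (log2 fold change -0.99 ± 0.43, edgeR adjusted p = 0.309). Its highest sample was control replicate 1 and its lowest stressed replicate 3, as for Slc16a1. Bsg, the partner protein that MCT1 and MCT4 need to reach the membrane, was at 734 ± 17.02 CPM in stressed samples and 798 ± 132 CPM in controls (log2 fold change -0.12 ± 0.15).

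Of 12 tested genes of pyruvate entry and fate, edgeR called 0 and DESeq2 called 0. At an unadjusted p under 0.05 in edgeR there were 2, both lower, against 16.6% of all genes (8.82% lower). These were Mpc1 and Mpc2, the subunits of the mitochondrial pyruvate carrier, at 9.51 ± 0.750 and 62.1 ± 7.16 CPM in stressed samples and 13.3 ± 0.999 and 76.4 ± 3.45 CPM in controls. Their stressed samples lay below all controls, as did those of 11.2% of all genes. Mpc1 and Mpc2 had log2 fold changes of -0.48 ± 0.17 and -0.30 ± 0.11 (edgeR adjusted p = 0.265 and 0.273). Pdk1, a kinase that shuts pyruvate dehydrogenase, had a log2 fold change of 0.01 ± 0.16. Of the 7 pentose phosphate genes edgeR and DESeq2 called 0 and 0 had an unadjusted p under 0.05. Of 10 tested genes of gluconeogenesis and glycogen both tools called 0, and 1 had an unadjusted p under 0.05, against 16.6% of all genes. It was the glycogen synthase Gys1, at 40.4 ± 2.54 CPM in stressed samples and 31.2 ± 2.69 CPM in controls.

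Some marker sums of other cells shared their highest and lowest sample with a transporter, and others did not. The part of other cells in these results was not tested. Among the sums that did not, those of macrophages and endothelium were highest in control replicate 2, the highest sample of neither transporter. All 4 mature colonocyte markers had negative log2 fold changes, and their summed level, with no marker at 0, was 703 to 1150.3 CPM in stressed samples and 778 to 4032 CPM in controls. That sum was highest in control replicate 1 and lowest in stressed replicate 3, as was Slc16a1. All 5 tested neutrophil markers had positive log2 fold changes, with sums of 32.2, 141 and 145 CPM in stressed samples, against 4.24, 28.1 and 66.4 CPM in controls, and no marker was at 0 in any sample. The neutrophil sum was highest in stressed replicate 3 and lowest in control replicate 1, as was Slc16a3. Smooth muscle markers had negative log2 fold changes for 6 of 6. Their sums, 2188 to 3676 CPM in stressed samples and 4908 to 6671 CPM in controls, did not overlap. All stressed samples lay below all controls also for Eno3 and Eno2, and for 11.2% of all genes. All 4 B cell markers had negative log2 fold changes, with sums of 119, 29.8 and 4.55 CPM in stressed samples, against 55.5, 344 and 219 CPM in controls. The B cell sum was lowest in stressed replicate 3 as for Slc16a1. It was highest in control replicate 2, whereas Slc16a1 was highest in control replicate 1. The groups overlapped and no marker was at 0. The 1 erythroid marker measured, Alas2, was at 1.501 to 3.52 CPM in stressed samples and 0.295 to 0.794 CPM in controls. Its stressed samples lay above all controls, as did those of Slc16a3 and of 12.5% of all genes. Skeletal muscle markers summed to 10.0 to 12.5 CPM in stressed samples and 9.25 to 38.1 CPM in controls, with Myh4 at 0 in 5 of the 6 samples. Macrophage markers summed to 297 to 685 CPM in stressed samples and 263 to 729.7 CPM in controls, with 3 of 5 positive. Fibroblast and endothelial markers also overlapped, at 633 to 966 and 92.6 to 108 CPM in stressed samples and 455 to 948 and 58.8 to 129 CPM in controls. Without the squamous control replicate 3, Slc16a3 had a log2 fold change of 1.11 and Slc16a1 of -0.69.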

How the data were processed

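The authors deposited a table with 1 row per gene symbol that holds whole-number read counts and FPKM for each of the 6 samples, per the file headers. Per the submitters' processing notes the tools were HISAT2 2.1.0 and fastp 0.19.3, StringTie 1.3.4d and featureCounts 1.6.2, and edgeR 3.24.3 and DESeq2 1.22.1, with the build GRCm39; no role is stated for any of them. No source used here gives the annotation or the strand setting, so reads of overlapping, antisense or near-identical genes cannot be told apart.

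Counts were filtered with filterByExpr, scaled with TMM and tested over all 15890 genes kept with edgeR 4.0.16 (quasi-likelihood test, robust, group as the only term, R 4.3.3), with Benjamini-Hochberg adjustment. Log2 fold changes are of stress over control, and their SE is the absolute log2 fold change over the square root of F. DESeq2 1.42.0 and limma-voom (limma 3.58.1) on the same genes were alternatives. The test was checked on simulated counts. Totals of 27160547 to 33017500 put the upper limit for a gene with no count (3 counts, counting error alone) at 0.0912 to 0.111 CPM.

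Levels of different genes were compared as deposited FPKM. Promoter windows were matched by symbol for 10 of 10 genes in RefSeq (GRCm38.p6); no other coordinates are given because the reference build differs from the files' build. No samples were alike within sampling noise (chi-square per gene of 40.7 or more). Replicates were numbered in accession order, and a number pairs nothing.

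The 10 genes and all lists were chosen with earlier results of these data known. Named genes were the 10, then Gapdh, Hif1a, Slc2a3, Hk3, Pfkl, Pfkm, Ldhb and Bsg, up to 4 of smallest p per list, and the 3 closest profiles at a mean of at least 10 CPM, without predicted genes, receptor segments or sex-linked genes. Slc5a8 and Bnip3 were named under this rule. Gpi1, Tpi1, Pgk1, Pgam1, Pdk1, Vegfa, Egln3, Car9, Krt5, Alas2, Myh4 and Eno1 were named after their values were seen. One other gene of the glycolysis list is not reported here, and the counts over that list leave it out.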

Additional observations from a re-analysis of the deposited data

How the results depend on the processing

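Under library-size, upper-quartile or RLE scaling, without the filter, and in limma-voom, 0 genes and 0 of the 10 passed the threshold, as in edgeR; DESeq2 called 818 genes (362 higher, 456 lower) and 1 of the 10, and the cause of that gap was not tested. In edgeR, leaving out each sample gave 0 genes and 0 of the 10 throughout (lowest and highest), and a median log2 fold change of the 10 of -0.17 to -0.0072. DESeq2 with each sample left out, an alternative chosen after seeing the data, called 0 to 2 of the 10 and 282 to 1308 of all genes: 2 beside 1308 without stressed replicate 1, 0 beside 282 and 338 without stressed replicates 2 and 3, 0 beside 750 without control replicate 1, and 1 beside 832 and 1005 without control replicates 2 and 3.

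No gene of the 10 changed direction with scaling, filter or tool. Leaving out a sample turned Slc2a1 (-0.10 to 0.14), Hk1 (-0.31 to 0.10), Pfkfb3 (-0.087 to 0.27) and Ldha (-0.15 to 0.0041) in sign, none of them called in edgeR. For the shares the leave-one-out differences in percentage points were -2.19 to 0.926 for Hk2, -0.855 to 0.288 for Ldha, -6.98 to -3.42 for Pfkp and 17.5 to 33.2 for Slc16a3; counts in place of FPKM, an added 1 FPKM and a floor of 1 FPKM gave 19.4 to 24.1 for Slc16a3. No paired analysis was possible because the labels carry no replicate numbers. With 3 samples a group, the SE of the log2 fold changes of the 10 genes was 0.12 to 0.34.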
